A study of Homo sapiens with 6 samples.

Results

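Sialyltransferases, which cap glycans with sialic acid, and the polypeptide GalNAc-transferases, which begin O-linked glycans, were examined in 6 human prostate cancer cell lines. The genes were all protein-coding entries of the deposited tables whose name begins with ST3GAL, ST6GAL, ST8SIA or GALNT. This rule took 39 of 19959 protein-coding entries, of 51698 entries in all. Among them were 20 sialyltransferases (6 ST3GAL, 2 ST6GAL, 6 ST6GALNAC and 6 ST8SIA genes) and 19 GALNT genes. GALNTL1, GALNTL2 and GALNTL4 are older names in the tables for GALNT16, GALNT15 and GALNT18. The rule used gene names and no measured value.

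The lines formed 3 pairs, each of a castration-sensitive line and a castration-resistant line that carries its name. The sensitive lines were kept with 10% fetal bovine serum, in RPMI for LNCaP (spelled LnCaP in the labels) and LAPC4 and in DMEM for VCaP. LNCaP-abl, VCaP-CR and LAPC4-CR, the resistant lines, were all kept in RPMI with 10% charcoal-stripped serum, from which steroids have been depleted, and 1X B27, a serum-free supplement. No line received any other treatment. Medium and state differed together in all 3 pairs and cannot be told apart. Each line gave 1 library, so a change within a pair has no replicate check and no p-value.

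Sialic acid is moved from CMP-sialic acid onto the end of a glycan in the Golgi, and the families are named for the bond they form and the sugar they act on. ST3GAL enzymes act on galactose of O-glycans, N-glycans and glycolipids, ST6GAL enzymes on galactose of N-glycans, ST6GALNAC enzymes on GalNAc, and ST8SIA enzymes on another sialic acid. GALNT enzymes add the first GalNAc to serine or threonine, a step that makes the Tn antigen. ST6GALNAC1 sialylates Tn into the sialyl-Tn antigen, which stops the chain, and it is known as an androgen-induced gene of prostate cancer cells.

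Total counts per library ran from 8661337 in LNCaP to 22433655 in LAPC4-CR, and the resistant library was the deeper of each pair. Protein-coding genes took a larger share of the counts in the resistant library of each pair, 67.8% in LNCaP against 77.4% in LNCaP-abl, 62.8% in VCaP against 68.0% in VCaP-CR, and 68.3% in LAPC4 against 79.5% in LAPC4-CR. Scaling by protein-coding genes alone turned the direction of 1 of the 17 tested enzymes in 1 pair, GALNT11 in the LNCaP pair, and otherwise the part of this share in the results was not tested. Levels are given in scaled FPKM, which is the deposited FPKM (fragments per kilobase of gene and per counts in the library) divided by 1 factor per library. EPCAM, an epithelial marker, was at 24.1 or more in every library, and KLK3, the androgen-induced gene of prostate-specific antigen, was at 610, 327 and 108 in LNCaP, VCaP and LAPC4 and at 0.649, 19.1 and 2.02 in their resistant lines. Of 12 markers of leukocytes, endothelium and fibroblasts, 11 were found in the tables. Without LUM, their summed level was 2.23 to 5.65 scaled FPKM, and LYZ was at 0 in LNCaP-abl. The fibroblast gene LUM was at 3.94 in VCaP and 50.2 in VCaP-CR, and its part in the results for that pair was not tested.

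The families differed in how much transcript they contributed. GALNT genes summed to 76.1 to 118 scaled FPKM per library, ST3GAL genes to 6.65 to 45.1, ST6GALNAC genes to 9.03 to 31.8, ST6GAL genes to 0.487 to 3.88 and ST8SIA genes to 1.16 to 3.63. Of the 39 genes, 8 were at 1 scaled FPKM or more in all 6 libraries, 14 in some, and 17 in none. Testing required that the 6 libraries average 1 scaled FPKM or more. This was met by 17 genes (5 ST3GAL, ST6GAL1, 4 ST6GALNAC and 7 GALNT genes), and 22 lay under it, among them all 6 ST8SIA genes. Values for all 39 genes are in the heat map of levels by family.

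**Figure D1:**
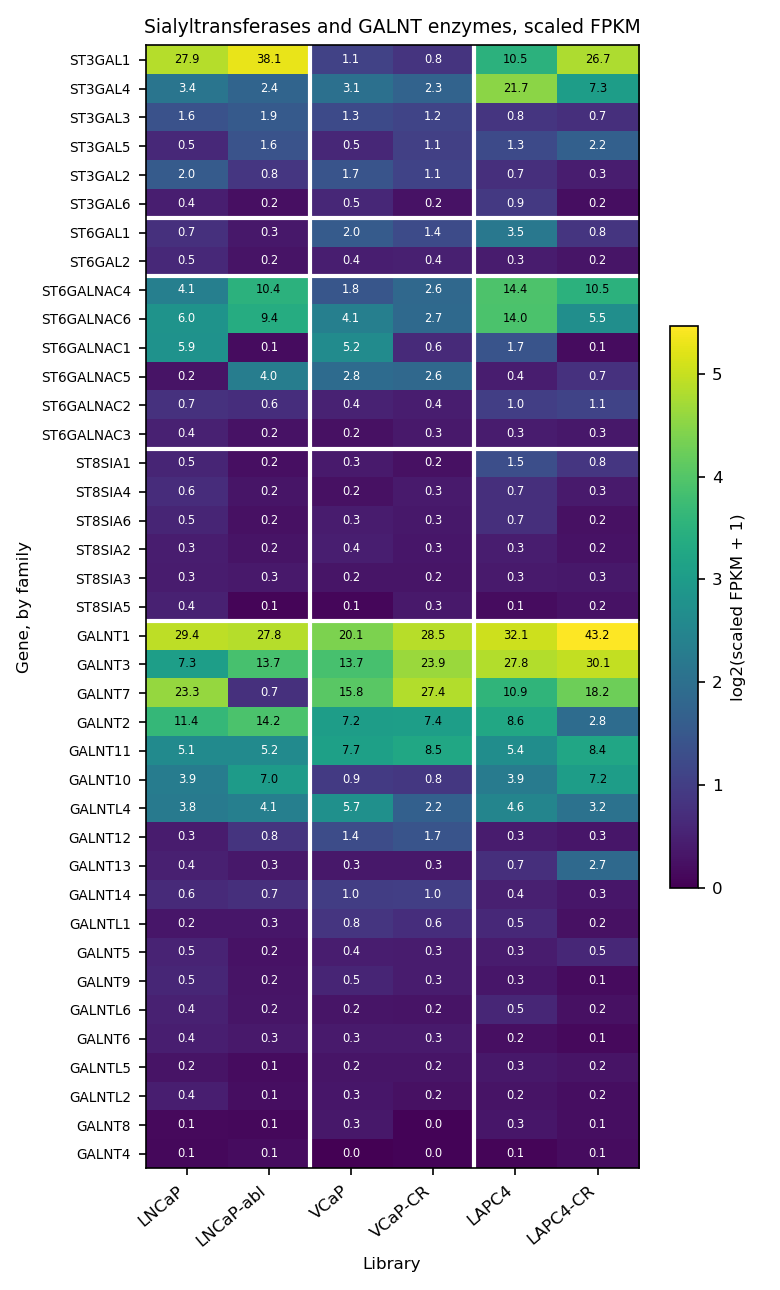
Scaled FPKM of all 39 genes (rows, by family) in the 6 libraries (columns, parent beside its resistant line). The number in each cell is the level, and the colour is log2(scaled FPKM + 1). GALNT1, at 20.1 to 43.2, was high in every library, while the ST8SIA rows stayed at or under 1.49.

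The comparison of resistant with sensitive lines asked which of these enzymes differed in common. ST6GALNAC1 was lower in the resistant line of all 3 pairs, by 9.20-fold to 44.1-fold. ST6GAL1, ST3GAL2 and ST3GAL4 were also lower in all 3 pairs, and ST3GAL5, GALNT3 and GALNT11 were higher in all 3 (GALNT11 in 2 of 3 with factors from protein-coding genes). None of the 17 passed the test over the 3 pairs, in which edgeR's quasi-likelihood test with the parental line as a block called 0 higher and 0 lower of 16231 genes at a Benjamini-Hochberg adjusted p under 5% (0% called in either direction). At an unadjusted p under 0.05 edgeR gave 728 genes higher (4.49%) and 548 lower (3.38%), and of the 17 enzymes 1 higher and 4 lower. DESeq2 called 82 genes higher (0.598%) and 55 lower (0.401%), and edgeR without the filter on low values 95 higher (0.228%) and 58 lower (0.139%). Of the 17 enzymes, each of these called ST6GALNAC1 alone, as lower.

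ST6GALNAC1 (ENSG00000070526, chromosome 17, 72132442 to 72151489, hg18) was at 5.86 scaled FPKM in LNCaP, 5.19 in VCaP and 1.68 in LAPC4. Its levels were 0.133 in LNCaP-abl, 0.564 in VCaP-CR and 0.127 in LAPC4-CR. Every sensitive line was above every resistant line. The counts behind these levels were 138, 129 and 55 in the sensitive lines and 4, 23 and 8 in the resistant lines, so the low levels rest on few reads. The sensitive line was 44.1-fold higher in the LNCaP pair (exact 95% interval of the count ratio 16.8 to 164), 9.20-fold in VCaP (5.87 to 15.0) and 13.2-fold in LAPC4 (6.27 to 32.2). Such intervals cover counting error only, and reads amplified without molecular identifiers are not independent molecules. In a bulk library, fewer cells with a transcript and less of it per cell cannot be told apart.

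Across the 3 pairs, the edgeR log2 difference of ST6GALNAC1 was -3.96 (SE 0.53), with an unadjusted p of 0.00018 and a Benjamini-Hochberg adjusted p of 0.415. Its adjusted p was 1.7e-08 in DESeq2, 0.043 in edgeR without the VCaP pair, 0.079 without the LNCaP pair and 0.126 without the LAPC4 pair. It was under 5% in 3 of 9 alternatives, which were DESeq2, edgeR without the filter and edgeR without the VCaP pair. With other library factors (RLE), with protein-coding genes only, in limma and without the parental line as a block, it was not under 5%. Of the 17 enzymes, ST6GALNAC1 alone was at least 2-fold lower in all 3 pairs on the log2(scaled FPKM + 1) scale, as were 16 of 16231 genes (0.0986%). None of the 17 was at least 2-fold higher in all 3 pairs, where 10 of all genes were (0.0616%). The ST6GALNAC1 share of the summed ST6GALNAC level was 33.8% in LNCaP against 0.537% in LNCaP-abl, 35.9% in VCaP against 6.24% in VCaP-CR, and 5.27% in LAPC4 against 0.695% in LAPC4-CR. ST6GALNAC2, which also sialylates GalNAc of O-glycans, lies 38701 bases from ST6GALNAC1 in hg18. It was at 0.355 to 1.13 scaled FPKM, and its log2(scaled FPKM + 1) change was -0.06 in the LNCaP pair, -0.08 in VCaP and 0.07 in LAPC4.

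**Figure D2:**
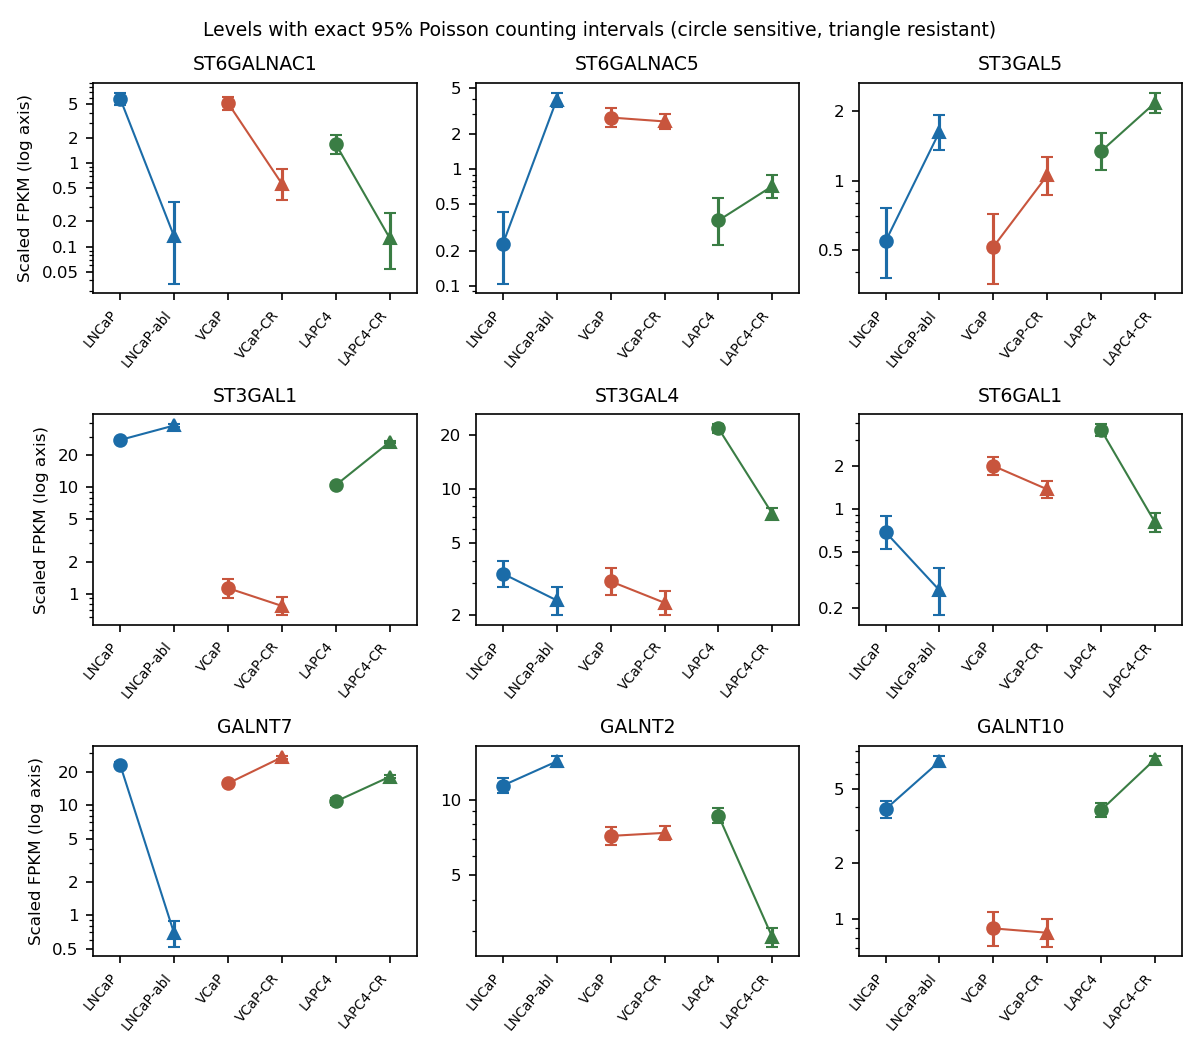
Scaled FPKM (log axis, scale differs between panels) of 9 enzymes in each library. Circles are sensitive and triangles resistant lines, lines join a pair, and bars are exact 95% Poisson intervals of the counts; ST6GALNAC1 lay lower in the triangle of each pair, and ST3GAL1 lay at 0.764 to 1.12 in the VCaP pair against 10.5 to 38.1 elsewhere.

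ST6GAL1 makes the alpha-2,6 sialic acid of N-glycans. Its level was 0.684 in LNCaP against 0.268 in LNCaP-abl, 1.99 in VCaP against 1.36 in VCaP-CR, and 3.55 in LAPC4 against 0.800 in LAPC4-CR. The resistant line was the lower of each pair, while the levels of the 2 states overlapped across lines. The sensitive line was 2.55-fold higher in the LNCaP pair, 1.46-fold in VCaP and 4.43-fold in LAPC4. Over the pairs the edgeR log2 difference was -1.34 (SE 0.40, unadjusted p 0.0128, Benjamini-Hochberg adjusted p 0.593). ST6GAL2, the other enzyme of this bond, was at 0.219 to 0.546 scaled FPKM.

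ST3GAL2, which sialylates galactose of gangliosides and of O-glycans, was at 1.98, 1.66 and 0.669 in LNCaP, VCaP and LAPC4 and at 0.822, 1.13 and 0.347 in their resistant lines. Its edgeR log2 difference was -0.90 (SE 0.34) with an unadjusted p of 0.033. ST3GAL5 encodes GM3 synthase, which makes the first ganglioside of the main series. Its level was 0.544, 0.515 and 1.34 in LNCaP, VCaP and LAPC4, and 1.63, 1.05 and 2.18 in LNCaP-abl, VCaP-CR and LAPC4-CR. The resistant line was higher in each pair, by 2.99-fold (2.04 to 4.51), 2.04-fold (1.38 to 3.09) and 1.62-fold (1.32 to 2.02), and the states overlapped across lines. Over the pairs edgeR gave a log2 difference of 1.10 (SE 0.34, unadjusted p 0.0146, Benjamini-Hochberg adjusted p 0.593).

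The 3 lineages, each a parent with its resistant line, were compared next to see which enzymes set the lines apart. With edgeR and state as a covariate, 2065 of 16231 genes differed between lineages at a Benjamini-Hochberg adjusted p under 5% (12.7%), and 4 of the 17 enzymes did: ST3GAL1, GALNT10, ST3GAL4 and ST6GALNAC4. A parent and its derivative are not replicate cultures of 1 line, and the spread in this test is that between them. At an unadjusted p under 0.05 there were 9 of the 17 enzymes and 33.5% of all genes. Leaving out 1 library at a time, which leaves a lineage with 1 library, changed how many of the 17 enzymes and of all genes were called.

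ST3GAL1 (ENSG00000008513, chromosome 8, 134536273 to 134653365, hg18) sialylates the core 1 O-glycan and thereby competes with chain extension. It was at 27.9 in LNCaP against 38.1 in LNCaP-abl, 1.12 in VCaP against 0.764 in VCaP-CR, and 10.5 in LAPC4 against 26.7 in LAPC4-CR. Both VCaP libraries were far under the other 4, and both LNCaP libraries were above both LAPC4 libraries. The edgeR log2 difference of VCaP from LNCaP was -5.05 (SE 0.55) and that of LAPC4 from VCaP 4.18 (SE 0.53), with a Benjamini-Hochberg adjusted p of 0.0080 for lineage, and this call was kept under 12 of 12 alternatives. ST3GAL1 took 77.9% and 84.6% of the summed ST3GAL level in the LNCaP pair, and 13.7% and 11.5% in the VCaP pair. The ST3GAL sum was 35.8 in LNCaP against 45.1 in LNCaP-abl, 8.22 in VCaP against 6.65 in VCaP-CR, and 35.9 in LAPC4 against 37.3 in LAPC4-CR.

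ST3GAL4 (ENSG00000110080, chromosome 11, 125730745 to 125815449, hg18) sialylates N-acetyllactosamine, including the chains that carry sialyl-Lewis antigens. Its level was 3.39 in LNCaP against 2.41 in LNCaP-abl, 3.07 in VCaP against 2.33 in VCaP-CR, and 21.7 in LAPC4 against 7.28 in LAPC4-CR. Both LAPC4 libraries were above the other 4. LAPC4 differed from VCaP by an edgeR log2 difference of 2.27 (SE 0.42), with a Benjamini-Hochberg adjusted p of 0.021 for lineage that became 0.087 without the LAPC4 library. ST3GAL4 was lower in the resistant line of each pair as well (edgeR log2 difference -0.82, SE 0.33, unadjusted p 0.045), most in the LAPC4 pair, where the sensitive line was 2.98-fold higher (2.73 to 3.26). From start to end, its entry overlaps that of KIRREL3. Whether exons overlap was not checked, and how reads of the overlap were counted is not known.

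In LAPC4 the order of ST3GAL enzymes was thus led by ST3GAL4, with 60.6% of the summed level, and in LAPC4-CR by ST3GAL1, with 71.5%. ST3GAL1 was 2.55-fold higher in that resistant line (2.40 to 2.72). ST3GAL3, a sialyltransferase of N-acetyllactosamine chains, was at 1.61, 1.93, 1.34, 1.17, 0.805 and 0.663 in LNCaP, LNCaP-abl, VCaP, VCaP-CR, LAPC4 and LAPC4-CR. Its counting intervals of the fold change took in 1 in each pair, and the sign of its edgeR difference over the pairs (-0.06) turned to 0.10 without the filter. ST3GAL6, which acts on the same kind of chain, was under 1 scaled FPKM in every library.

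ST6GALNAC4 (ENSG00000136840, chromosome 9, 129709935 to 129719138, hg18) adds sialic acid to the GalNAc of an already sialylated core 1 glycan. It was at 4.11 in LNCaP against 10.4 in LNCaP-abl, 1.75 in VCaP against 2.58 in VCaP-CR, and 14.4 in LAPC4 against 10.5 in LAPC4-CR. Both VCaP libraries were under the other 4, while LAPC4-CR and LNCaP-abl were nearly level. LAPC4 differed from VCaP by an edgeR log2 difference of 2.60 (SE 0.51). Its Benjamini-Hochberg adjusted p for lineage was 0.045 in edgeR, and 0.165, 0.133 and 0.061 without VCaP, VCaP-CR and LAPC4, and 0.064 with protein-coding genes only.

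ST6GALNAC6, an enzyme of ganglioside sialylation, lies 2426 bases from ST6GALNAC4 in hg18. It was at 5.99 in LNCaP against 9.39 in LNCaP-abl, 4.10 in VCaP against 2.66 in VCaP-CR, and 14.0 in LAPC4 against 5.52 in LAPC4-CR. In the LAPC4 pair the sensitive line was 2.54-fold higher (2.24 to 2.89), and in the LNCaP pair the resistant line was 1.57-fold higher (1.30 to 1.89). The neighbours differed in size and, in the VCaP pair, in direction: ST6GALNAC4 was 1.47-fold higher in VCaP-CR (1.03 to 2.12), and ST6GALNAC6 was 1.54-fold higher in VCaP (1.20 to 1.98).

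GALNT10 (ENSG00000164574, chromosome 5, 153550483 to 153780737, hg18) prefers peptides that already carry GalNAc. It was at 3.89 in LNCaP against 7.01 in LNCaP-abl, 0.896 in VCaP against 0.849 in VCaP-CR, and 3.85 in LAPC4 against 7.20 in LAPC4-CR. Both VCaP libraries were under the other 4. The edgeR log2 difference of VCaP from LNCaP was -2.55 (SE 0.38), with a Benjamini-Hochberg adjusted p of 0.017 for lineage and 0.106 without VCaP-CR. The resistant line was 1.80-fold higher (1.60 to 2.04) in the LNCaP pair and 1.87-fold higher (1.70 to 2.07) in the LAPC4 pair. From start to end, the GALNT10 entry overlaps that of MFAP3. Whether exons overlap was not checked, and how reads of the overlap were counted is not known.

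GALNT3, whose substrates include the hormone FGF23, was at 7.30 in LNCaP against 13.7 in LNCaP-abl, 13.7 in VCaP against 23.9 in VCaP-CR, and 27.8 in LAPC4 against 30.1 in LAPC4-CR. Both LAPC4 libraries were above the other 4. Its adjusted p for lineage in edgeR with Benjamini-Hochberg adjustment was 0.054, and that of ST6GAL1 was 0.061, so neither was called. GALNT3 was higher in the resistant line of each pair, by 1.87-fold, 1.75-fold and 1.09-fold, with an edgeR log2 difference of 0.62 (SE 0.27, unadjusted p 0.054). GALNT11, known to glycosylate LDL-receptor-related proteins, was at 5.09 to 8.49 scaled FPKM. It was higher in all 3 pairs, but its LNCaP change of 0.02 on the log2(scaled FPKM + 1) scale turned to -0.07 with factors from protein-coding genes.

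Changes within each pair were counted as called at 1 or more on the log2(scaled FPKM + 1) scale, which is at least 2-fold and understates the change of low genes. In the LNCaP pair 2 of the 17 enzymes were called higher (background 6.23% of 16231 genes) and 2 lower (6.19%). The VCaP pair had 0 higher (2.37%) and 2 lower (2.03%), and the LAPC4 pair 1 higher (5.22%) and 5 lower (5.28%). At least 1 pair called 10 of the 17 enzymes and 23.3% of all genes. The median change of the 17 enzymes was 0.17 in the LNCaP pair, -0.08 in VCaP and -0.12 in LAPC4, and that of all tested genes was -0.01, -0.01 and -0.02. Higher by any amount in all 3 pairs were 3 of the 17 (15.1% of all genes), and lower in all 3 were 4 (16.7%). Apart from ST6GALNAC1, no gene of the 17 was called in more than 1 pair.

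**Figure D3:**
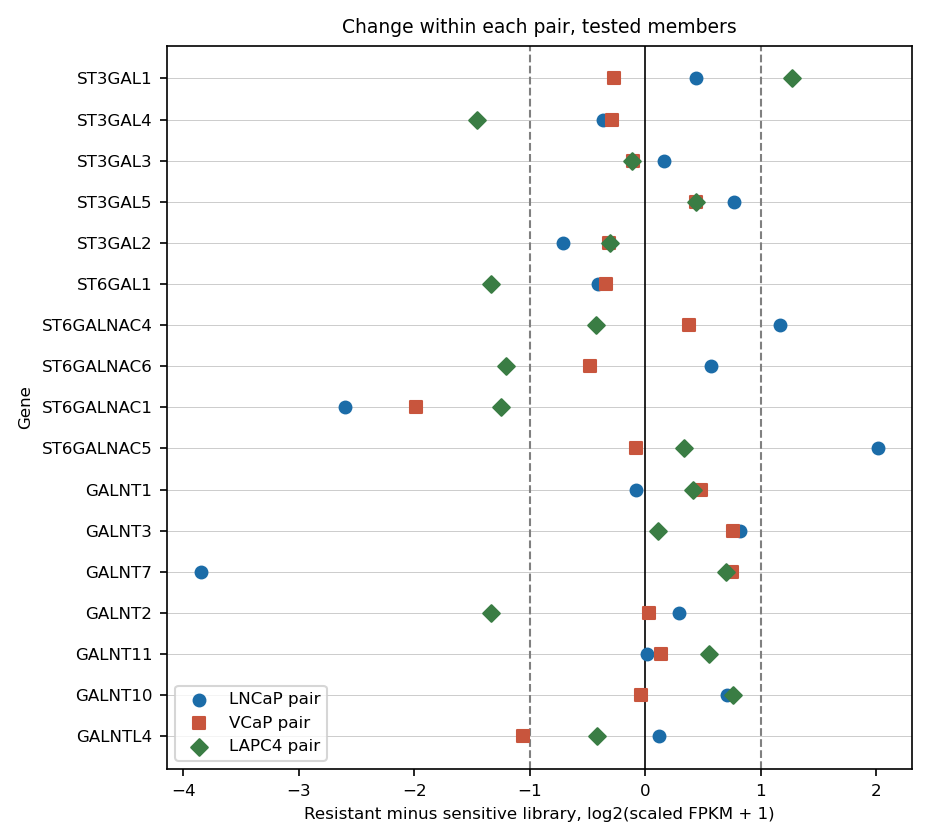
Change on the log2(scaled FPKM + 1) scale, resistant minus sensitive library, for the 17 tested enzymes (rows) in the LNCaP (circles), VCaP (squares) and LAPC4 (diamonds) pairs; each point is a difference of 2 single libraries. Dashed lines mark the 2-fold call at -1 and 1; GALNT7 lay at -3.85 in the LNCaP pair and at 0.75 and 0.70 in the others.

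Of all changes of the 17 enzymes in a pair, the 3 largest were in the LNCaP pair, those of GALNT7, ST6GALNAC1 and ST6GALNAC5. GALNT7 (ENSG00000109586, chromosome 4, 174326479 to 174481693, hg18), which adds GalNAc to peptides that already carry it, was at 23.3 scaled FPKM in LNCaP and 0.690 in LNCaP-abl, on 1483 and 56 counts. VCaP had 15.8, VCaP-CR 27.4, LAPC4 10.9 and LAPC4-CR 18.2. LNCaP-abl thus lay under each of the other 5 libraries. LNCaP was 33.8-fold higher than LNCaP-abl (25.9 to 45.0), while VCaP-CR was 1.73-fold (1.61 to 1.85) and LAPC4-CR 1.68-fold (1.56 to 1.81) higher than its parent. On the log2(scaled FPKM + 1) scale the changes were -3.85, 0.75 and 0.70. Over the pairs edgeR gave a log2 difference of -0.62 (SE 1.25), which was 0.78 without the LNCaP pair. GALNTL6, a GALNT relative 127193 bases away in hg18, was at 0.178 to 0.494 scaled FPKM in the 6 libraries.

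GALNT7 was 26.4% of the summed GALNT level in LNCaP and 0.906% in LNCaP-abl. The sum itself was 88.3 in LNCaP and 76.1 in LNCaP-abl. GALNT1, a broadly acting initiator and the most abundant GALNT transcript in every library, held 33.3% and 36.5%, and the shares of GALNT2 and GALNT3 were 12.9% and 8.27% in LNCaP and 18.7% and 18.0% in LNCaP-abl. In the VCaP pair GALNT7 held 20.7% and 26.3%, and in the LAPC4 pair 11.2% and 15.4%.

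**Figure D4:**
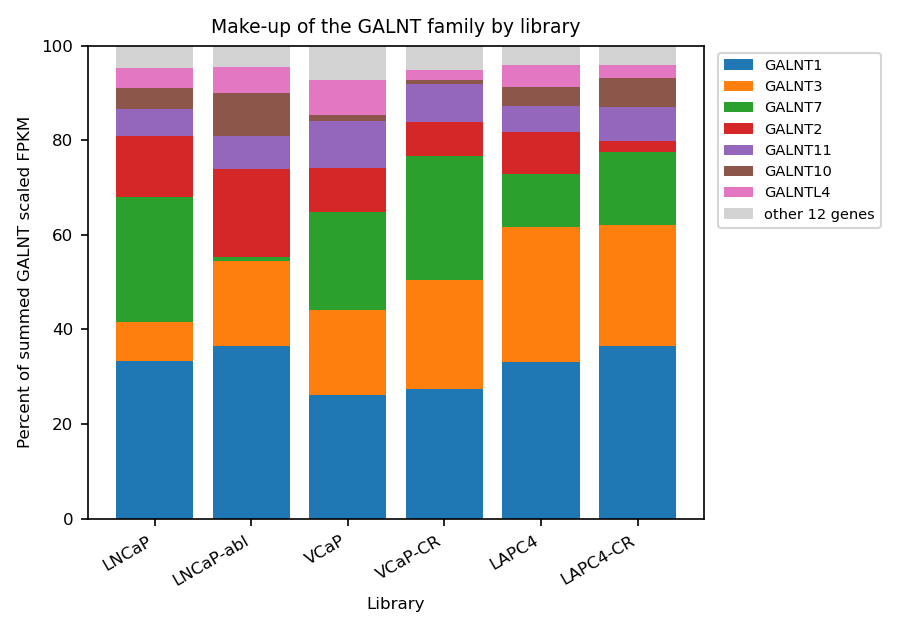
Percent of the summed GALNT scaled FPKM taken by 7 GALNT genes and by the other 12 together, in each library. The GALNT7 segment was 26.4% in LNCaP and 0.906% in LNCaP-abl, and GALNT1 held 26.2% to 36.6% of each library.

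ST6GALNAC5 (ENSG00000117069, chromosome 1, 77105714 to 77303984, hg18) sialylates gangliosides of the GM1b kind and is known for its expression in brain. It was at 0.228 in LNCaP and 3.97 in LNCaP-abl, on 9 and 200 counts. VCaP and VCaP-CR had 2.78 and 2.57, and LAPC4 and LAPC4-CR 0.363 and 0.717. LNCaP-abl and both VCaP libraries were high and the other 3 low. LNCaP-abl was 17.4-fold higher than LNCaP (8.98 to 38.6). Over the pairs edgeR's log2 difference was 1.47 (SE 0.80, Benjamini-Hochberg adjusted p 0.681). ST6GALNAC4 was the other enzyme called higher in this pair, at 2.54-fold (2.03 to 3.20).

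The promoters of GALNT7, ST6GALNAC5 and ST6GALNAC4, which were called in the LNCaP pair in opposite directions, are shown as the 250 bases before the transcription start, 5′ to 3′ in the direction of the gene, with each CG dinucleotide in capitals. They are from RefSeq (GRCh38.p14), a later build than the hg18 coordinates above, at chr4:173168561-173168810 (plus strand), chr1:76867230-76867479 (plus strand) and chr9:127917042-127917291 (minus strand).
GALNT7: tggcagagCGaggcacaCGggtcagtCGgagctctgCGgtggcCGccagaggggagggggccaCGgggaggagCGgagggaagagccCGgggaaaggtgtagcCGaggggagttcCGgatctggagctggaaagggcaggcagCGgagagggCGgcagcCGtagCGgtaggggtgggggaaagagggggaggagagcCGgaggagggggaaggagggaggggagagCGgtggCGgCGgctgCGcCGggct
ST6GALNAC5: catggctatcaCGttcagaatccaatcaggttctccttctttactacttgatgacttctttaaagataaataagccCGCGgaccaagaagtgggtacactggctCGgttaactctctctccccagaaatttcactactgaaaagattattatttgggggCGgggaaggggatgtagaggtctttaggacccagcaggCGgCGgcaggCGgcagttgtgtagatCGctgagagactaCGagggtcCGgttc
ST6GALNAC4: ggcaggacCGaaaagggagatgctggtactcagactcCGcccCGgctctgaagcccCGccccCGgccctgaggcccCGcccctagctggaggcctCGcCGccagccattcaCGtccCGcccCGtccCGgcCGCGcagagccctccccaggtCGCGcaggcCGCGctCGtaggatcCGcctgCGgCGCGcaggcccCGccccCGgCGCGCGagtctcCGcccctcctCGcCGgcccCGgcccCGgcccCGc
These windows held 20, 11 and 34 CG dinucleotides, and their GC content was 72.4%, 49.6% and 79.2%. The GC box GGGCGG, searched on both strands, matched 1, 1 and 6 times.

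RefSeq windows were matched for 27 of the 39 genes, with 46 windows because some genes have several starts, and 12 genes had none, ST6GALNAC1 among them. The median number of CG dinucleotides was 22 in the 46 windows and 11 in all 35114 windows of the same length. The GC box was in 63.0% of the 46 windows and 42.6% of all, and the TATA box letters TATAAA were in 2.17% and 10.7%. The letters AGAACA, a half-site of the androgen response element, were in 4.35% of the 46 windows, on either strand, and in 12.4% of all. Windows of 1 gene are not independent, and a match of letters in a window is a description only.

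In the LAPC4 pair the enzymes called lower were ST6GALNAC1, ST3GAL4, ST6GAL1, ST6GALNAC6 and GALNT2. GALNT2 (ENSG00000143641, chromosome 1, 228260159 to 228484493, hg18), a broadly acting initiator of O-glycans, was at 11.4 in LNCaP against 14.2 in LNCaP-abl, 7.18 in VCaP against 7.38 in VCaP-CR, and 8.65 in LAPC4 against 2.83 in LAPC4-CR. LAPC4-CR was the lowest of the 6 libraries. LAPC4 was 3.05-fold higher (2.74 to 3.40) than LAPC4-CR, and LNCaP-abl was 1.25-fold higher (1.14 to 1.36) than LNCaP. ST3GAL1 was the enzyme called higher.

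GALNT13, a GALNT of neural tissue, lay under the filter but was at 0.665 in LAPC4 and 2.68 in LAPC4-CR, on 56 and 434 counts, against 0.277 to 0.397 in the other 4 libraries. LAPC4-CR was 4.02-fold higher (3.04 to 5.41). In the VCaP pair the enzymes called lower were ST6GALNAC1 and GALNTL4, a GALNT with little known activity of its own. GALNTL4 was at 5.66 in VCaP and 2.20 in VCaP-CR (2.58-fold, 2.05 to 3.24). It was at 3.75 and 4.15 in LNCaP and LNCaP-abl and at 4.59 and 3.18 in LAPC4 and LAPC4-CR.

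GALNT1 (ENSG00000141429, chromosome 18, 31415001 to 31545796, hg18) varied least among the leading transcripts. It was at 29.4 in LNCaP against 27.8 in LNCaP-abl, 20.1 in VCaP against 28.5 in VCaP-CR, and 32.1 in LAPC4 against 43.2 in LAPC4-CR, a 2.15-fold range. The corresponding range was 4.12-fold for GALNT3, 5.01-fold for GALNT2 and 39.7-fold for GALNT7. Neither state (edgeR Benjamini-Hochberg adjusted p 0.786) nor lineage (0.319) was called for GALNT1.

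The protein-coding genes set beside the 22 genes under the filter were chosen by the same filter, so similar medians follow in part from it. The median of the 22 genes was 0.406, 0.218, 0.314, 0.283, 0.340 and 0.215 scaled FPKM in LNCaP, LNCaP-abl, VCaP, VCaP-CR, LAPC4 and LAPC4-CR. The median of all 8385 protein-coding genes under the filter that had any count, these 22 included, was 0.374, 0.238, 0.279, 0.253, 0.308 and 0.241. Most of the 22 were lower in the resistant library, 18 in LNCaP-abl, 14 in VCaP-CR and 17 in LAPC4-CR. The shares of low protein-coding genes that were lower there were 70.7%, 54.1% and 64.0%.

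Of the 6 ST8SIA genes, which lengthen chains of sialic acid, ST8SIA1 stood highest. It encodes GD3 synthase and was at 1.49 in LAPC4 and 0.830 in LAPC4-CR, on 132 and 142 counts, against 0.172 to 0.471 in the other 4 libraries. From start to end, its entry overlaps that of CMAS, a gene at 8.61 to 20.8 scaled FPKM. Whether exons overlap was not checked, and how reads of the overlap were counted is not known. ST8SIA2 and ST8SIA4, the polysialic acid synthases, were at 0.200 to 0.378 and at 0.181 to 0.671. GALNT12, which prefers peptides that already carry GalNAc, was at 1.41 in VCaP, 1.68 in VCaP-CR and 0.256 to 0.778 in the other 4 libraries. GALNT4 had 0 counts in VCaP, where 3 counts would be 0.0568 scaled FPKM, and at most 17 in another library.

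Genes that feed these enzymes or work beside them were listed in 9 groups of 79 genes, of which 44 passed the filter. Over the pairs edgeR called 0 of the 44 at an adjusted p under 5%, and at an unadjusted p under 0.05 it gave 3 higher and 6 lower, where all genes had 4.49% higher and 3.38% lower. Between lineages it called 10 of the 44, 22.7%, where all genes had 12.7%. Calls within pairs were 5 higher and 3 lower in the LNCaP pair, where 6.23% of all genes were higher and 6.19% lower. They were 1 higher and 0 lower in the VCaP pair (2.37% and 2.03% of all genes), and 3 higher and 5 lower in the LAPC4 pair (5.22% and 5.28%).

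Sialic acid supply differed most in GNE, the enzyme that begins sialic acid synthesis. GNE was at 0.392 in LNCaP against 0.307 in LNCaP-abl, 0.630 in VCaP against 5.63 in VCaP-CR, and 4.71 in LAPC4 against 5.37 in LAPC4-CR. VCaP-CR was 8.93-fold higher than VCaP (6.31 to 13.0). CMAS, which activates sialic acid, and SLC35A1, which carries it into the Golgi, were called in no pair, and neither were NANS and NANP. Among the sialidases, which remove sialic acid, NEU1 was at 5.33 in LNCaP and 22.6 in LNCaP-abl (4.23-fold, 3.68 to 4.88), and at 3.73 in VCaP against 2.79 in VCaP-CR and 16.8 in LAPC4 against 23.4 in LAPC4-CR.

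Of the 5 tested enzymes that extend O-GalNAc glycans, GCNT1, which makes the core 2 branch, was lower in the resistant line of each pair. It was at 10.8 in LNCaP against 4.49 in LNCaP-abl, 5.92 in VCaP against 3.55 in VCaP-CR, and 1.82 in LAPC4 against 0.484 in LAPC4-CR. Its edgeR log2 difference was -1.28 (unadjusted p 0.0057), and lineage was called (Benjamini-Hochberg adjusted p 0.019). C1GALT1, the core 1 synthase, was at 1.94 and 4.30, 2.16 and 2.40, and 5.13 and 2.93 in the 3 pairs, and its chaperone C1GALT1C1 at 18.8 and 11.6, 8.07 and 10.6, and 19.5 and 29.8. Neither was called in any pair.

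UDP-GalNAc supply held all 3 listed genes that were higher over the pairs at an unadjusted p under 0.05 in edgeR, none of them called. It also held 2 of the 6 listed genes that were lower at that threshold. These were 3 higher and 2 lower of its 10 tested genes, where all genes had 4.49% higher and 3.38% lower. GFPT1, the first enzyme of the hexosamine pathway, was at 19.7 in LAPC4 and 60.2 in LAPC4-CR, and higher in the resistant line of the other 2 pairs as well. SLC35A3 and SLC35D1, nucleotide-sugar transporters, were higher in all 3 pairs. UAP1, which makes UDP-GlcNAc, was lower in all 3, from 101 to 40.6 in the LNCaP pair.

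Of the 6 tested genes of ganglioside synthesis, 2 were called higher and 1 lower in the LNCaP pair (6.23% and 6.19% of all genes). The VCaP pair had 0 calls among the 6, and the LAPC4 pair had 1 lower (5.28% of all genes). The difference between pairs was not tested. In LNCaP and LNCaP-abl, B4GALNT1, which makes GM2 and GD2, was at 0.783 and 4.49 and B3GALT4, which makes GM1, at 1.02 and 5.42, while B4GALT6, a lactosylceramide synthase, was at 3.27 and 0.720. Each of these was called in the LNCaP pair alone. In the LAPC4 pair B3GNT5, which begins the lacto-series glycolipids, was at 9.51 and 2.35.

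MUC1, a mucin that carries many O-glycans, was at 0.198 in LAPC4 and 25.3 in LAPC4-CR (127-fold, 61.7 to 318) and at 0.342 to 0.523 in the other 4 libraries. SDC1 was at 10.0 and 32.6 in the LNCaP pair, and CD55, another O-glycosylated surface protein, at 0.482 and 2.34 in the LNCaP pair and 10.0 and 3.19 in the LAPC4 pair. Of the other 12 mucins listed, 0 passed the filter. FUT1, the H antigen fucosyltransferase, was at 3.50 in LAPC4 and 0.398 in LAPC4-CR, and CSGALNACT1, which begins chondroitin chains, at 3.91 and 0.825. NCAM1, the main carrier of polysialic acid, was under the filter and at 1.90 in LAPC4 and 0.337 in LAPC4-CR.

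**Figure D5:**
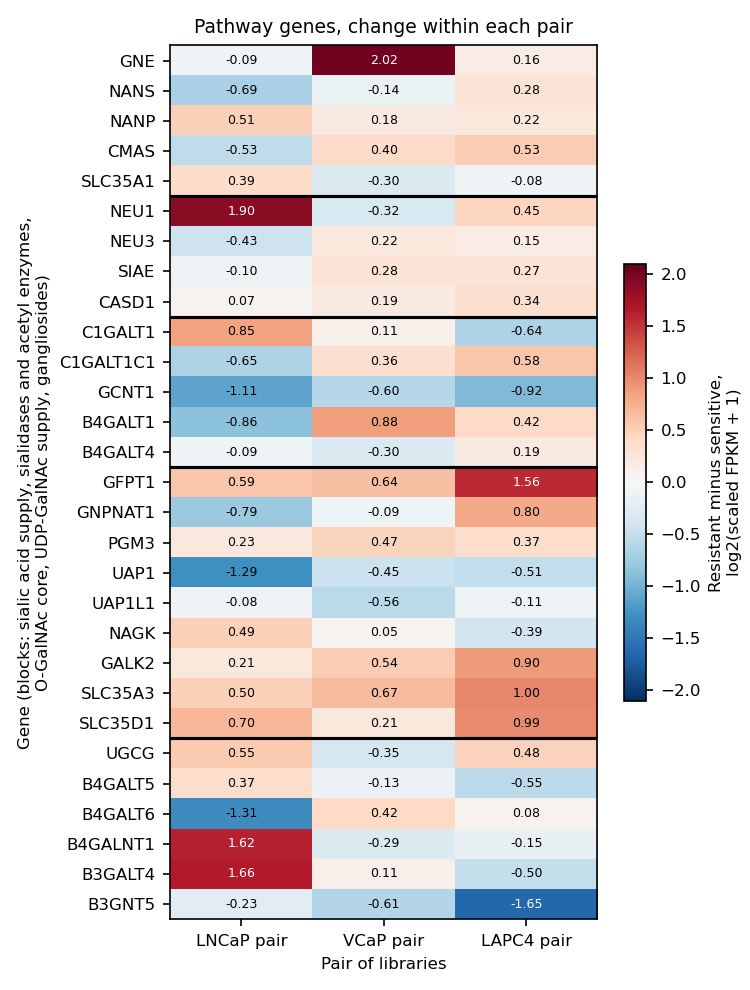
Change on the log2(scaled FPKM + 1) scale, resistant minus sensitive library, of tested genes of 5 pathway groups (blocks, named on the axis) in each pair; red is higher and blue lower in the resistant line. GNE was at 2.02 in the VCaP pair, and GCNT1 at -1.11, -0.60 and -0.92.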

How the data were processed

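RNA was measured in 6 cell lines with 1 library each, made from total RNA with the SOLiD Total RNA-Seq kit, per the labels' protocols. Per the file headers, each deposited table holds counts and FPKM per gene, and the counts are whole numbers. HTSeq and the hg18 build are named per the submitters' processing notes, with no version. Not given in the sources used here are the aligner, the annotation, and how strand and reads with several matches were treated. The deposited FPKM was rebuilt from count, gene length and total count within 0.0445% for genes with at least 20 counts. FPKM divides by the library total, so RNAs that take a larger share lower all other values. The gene length column is in 5 of the 6 tables.

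Small RNA classes were left out (8763 entries) and entries of 1 symbol summed (48 symbols, 0 of them among the 39 genes). FPKM was divided by a factor per library (0.847 to 1.11), the median ratio over 11600 genes. The tests covered 16231 genes (11335 protein-coding) that averaged 1 scaled FPKM or more. Counts were tested with edgeR 4.0.16 (R 4.3.3, TMM factors, lineage and state as terms, 2 residual degrees of freedom, Benjamini-Hochberg adjustment, threshold 5%). Changes within pairs are differences of log2(scaled FPKM + 1). Intervals are exact at 95%. DESeq2 1.42.0, limma 3.58.1, other filters, factors and pseudocounts (0.25 and 5), and each library left out were alternatives.

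Groups came from the labels, and lineages from the line names. Deviations of parent and derivative from the group means correlated at 0.46, 0.73 and 0.59 across genes, and those of different lines at -0.48 to -0.06. The deviations cancel within each group, so the negative sign between different lines is partly built in. On simulated counts for 16231 genes, the state test recovered 77% of 100 genes changed 4-fold and 100% of 100 changed 16-fold, with 6 false calls. The lineage test recovered 62% and 100%, with 4. The simulation gave all genes a single dispersion (0.121). Only genes with many counts were changed, by the same factor in every library of a group. These rates are therefore no measure of how many real differences the tests would find here.

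The genes and lists were chosen with earlier results of these data known. Named with values were ST6GALNAC1, ST6GAL1, ST3GAL1 to ST3GAL6, every enzyme with an unadjusted p under 0.05 for state or lineage, every one called in a pair, and the 3 most abundant GALNT genes. GALNT11, GALNT12, GALNT13, GALNT4, ST6GALNAC2, the ST8SIA genes and the single genes named from the lists were chosen after their values were seen. A listed pathway gene is not reported here and is left out of the plot of pathway genes, but the list counts include it.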

Additional observations from a re-analysis of the deposited data

Results flagged for a closer look

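Of the 17 tested enzymes, 10 were higher in the resistant line of one pair and lower in that of another. This is no trait of these enzymes, as most tested genes did not keep 1 direction. Of all 16231, only 15.1% were higher in all 3 pairs and 16.7% lower in all 3. Given here are 5 of them, for which at least 1 of the opposite changes reached 2-fold and the counting intervals of both left out no change. Each pair has 1 library per state, so the difference between pairs was not tested. Values are differences of the changes on the log2(scaled FPKM + 1) scale. GALNT7 was lower in LNCaP-abl and higher in VCaP-CR and LAPC4-CR than in the parent, a difference of -4.60 for LNCaP minus VCaP and -4.54 for LNCaP minus LAPC4. GALNT2 was higher in LNCaP-abl and lower in LAPC4-CR (LNCaP minus LAPC4 1.63). ST6GALNAC4 was likewise higher in LNCaP-abl and lower in LAPC4-CR (1.59), and so was its neighbour ST6GALNAC6 (1.78). ST3GAL1 was lower in VCaP-CR and higher in LAPC4-CR (VCaP minus LAPC4 -1.54).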

How the results depend on the processing

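EdgeR gave 0 genes higher, 0 lower and 0 called enzymes over the pairs; DESeq2 gave 82, 55 and 1, and edgeR without the filter on low values 95, 58 and 1. Leaving out 1 pair gave 0 to 13 higher genes, 1 to 20 lower genes and 0 to 1 enzymes. Without the replicate block, that is without the pairing by parental line, edgeR called 0 higher, 0 lower and 0 enzymes. The fit with the block called 0 as well, so these counts cannot show whether the pairing matters. The common dispersion was 0.121 with the block and 0.344 without it. Lineage calls, 2065 of 16231 genes and 4 enzymes, were 3973 genes and 7 enzymes in DESeq2. In edgeR they were 4900 of 41666 genes without the filter and 1144 of 8143 genes at a mean of at least 5 scaled FPKM. Among protein-coding genes only, edgeR called 1294 of 11335. These gene sets differ in size, so their counts are to be read against the number tested. Without the filter, 10 of 39 enzymes were called for lineage, beside 4900 of 41666 genes. The 10 were 7 of the 17 and GALNT12, GALNT13 and ST8SIA1, which the filter leaves out. Lineage calls ran from 979 to 3589 genes and from 2 to 8 enzymes when 1 library was left out.

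A pseudocount of 5 left 0 enzymes higher in the LNCaP pair, 0 lower in the VCaP pair and 1 lower in the LAPC4 pair. FPKM as deposited, without a factor per library, left 1 lower in the VCaP pair, and no filter gave 2 higher in the LAPC4 pair, adding GALNT13, which the filter leaves out. Factors from protein-coding genes moved every gene by -0.11 (log2) in the LNCaP pair.

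Signs of the edgeR log2 difference over the pairs turned for ST3GAL3, to 0.10 without the filter and 0.0088 without the replicate block. Leaving out 1 pair gave -0.22 to 0.043 for ST3GAL3, -2.07 to 0.78 for GALNT7 (positive without the LNCaP pair), -0.77 to 0.19 for GALNT2, -0.021 to 0.93 for ST3GAL1 and -0.98 to 0.030 for ST6GALNAC6, these 3 turning without the LAPC4 pair. Between lineages, VCaP minus LNCaP ran from -0.54 (without LNCaP-abl) to 5.32 for GALNT7 and from -0.73 to 0.42 for GALNTL4, where it was 0.41 without LNCaP-abl and 0.42 without VCaP-CR. The cause was not tested for any of these.

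Under the alternatives, 57 of 85 counts stayed within a set ratio of the main count. Kept on their side of the threshold or within their spread were 180 of 204 changes within pairs, 151 of 162 state differences and 172 of 196 lineage differences of single genes. Few counts limit how well the level of ST6GALNAC1 in the resistant lines, and of genes under 1 scaled FPKM, is known.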
